A study of Mus musculus with 6 samples.

Results

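The genes described here encode the nuclear subunits of the mitochondrial respiratory chain and of the ATP synthase. They were chosen by annotated symbol (Ndufa, Ndufb, Ndufc, Ndufs, Ndufv, Uqcr, Cox4i, Cox5, Cox6, Cox7, Cox8 and Atp5, with Sdha, Sdhb, Sdhc, Sdhd and Cyc1), leaving out assembly factors and pseudogenes. The rule uses symbols and no measured value, although it was written with earlier results of these data known. In all, 83 of 18193 genes with a probe set of their own met the rule. Complex I had 36 of them, complex II had 4, complex III had 9, complex IV had 17 and complex V, the ATP synthase, had 17. The symbols Ndufs6, Ndufa11 and Cox7b were not paired alone with any probe set and are not analysed here as single genes.

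In the inner mitochondrial membrane, complexes I and II take electrons from NADH and succinate and hand them to coenzyme Q, complex III passes them to cytochrome c, and complex IV gives them to oxygen. Complexes I, III and IV pump protons as they do so, and the ATP synthase lets the protons back and makes ATP. Each complex has core subunits that carry the cofactors or the catalytic sites. Most have many small accessory subunits as well, which serve chiefly assembly and stability. A few core subunits are encoded by mitochondrial DNA, and all the others come from the nucleus and are imported.

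RNA came from melan-a, a line of pigment-producing melanocytes grown from the epidermal melanoblasts of C57BL/6 mouse embryos, and was hybridised to 6 one-colour oligonucleotide arrays. Every culture carried delta-BRAF-ER, a constitutively signalling kinase held inactive until tamoxifen is given. The 6 groups had 1 array each: activated BRAF with ZEB2, SNAIL2, TWIST1 or ZEB1 added, activated BRAF alone (BRAF-on), and BRAF not activated (BRAF-off). ZEB, SNAIL and TWIST proteins are zinc-finger or helix-loop-helix regulators that drive epithelial to mesenchymal transitions in the embryo. No array holds tamoxifen without the construct or an added factor without activated BRAF, and the dose, the time and whether the cells were clones or pools are not given in the sources used here. The 4 factor comparisons share the BRAF-on array, which also stands in the comparison with BRAF-off. With 1 array per group no difference was tested and no error can be given, so each ratio describes 2 arrays, and the small number of arrays limits the precision.

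Between 10611 and 11269 genes per array reached the floor of 63.7 signal units, the median of all values. The array labelled SNAIL2 stood apart from the rest in its poly-A control RNAs, bacterial transcripts added to the sample before amplification. Their signal there was 2.55 times that on the BRAF-on array (median of 24 probe sets, all 24 higher), against 0.880 to 1.42 times on the other arrays. The hybridisation controls, added after labelling, were at most 1.20 times BRAF-on. The ratio of 3' to 5' beta-actin signal, a measure of RNA integrity, was 1.44 on the SNAIL2 array and 1.47 on the BRAF-on array, in a range of 1.36 to 1.54. Of 10 melanocyte markers, 9 reached the floor on every array but TWIST1, where 3 did (summed signal 4969, against 67799 on BRAF-on), and Dct, Tyrp1, Tyr, Pmel, Mlana and Kit lay under it. Their summed signal was 115831 on the ZEB2 array, 139349 on the SNAIL2 array and 28359 on the ZEB1 array. In bulk RNA such as this, fewer cells of a type and less RNA per cell cannot be told apart. Of 9 probe sets at the floor for Zeb2, Snai2, Twist1 and Zeb1, 0 reached 2-fold over BRAF-on on the array named for that gene. The arrays are therefore called by their labels. The Zeb2 probe sets were all higher on the ZEB2 array, at 1.15 to 1.70 times BRAF-on, with 1 past 1.5-fold. Those for Twist1 (0.823 times) and Zeb1 (0.813 times) were lower on their own arrays. Both Snai2 probe sets were lower on the SNAIL2 array, at 407 on SNAIL2 and 1157 on BRAF-on for one and 3142 and 4175 for the other. Whether these probe sets can detect the introduced sequences is not known here. Of the markers of other cell types, 1 to 2 of 5 keratinocyte, 3 to 5 of 5 fibroblast, 2 of 5 leukocyte and 0 to 1 of 5 muscle genes reached the floor, with Ptprc, Adgre1 and Cd14 under it on all arrays.

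Of the 83 subunit genes, 76 reached the floor on all 6 arrays and the other 7 on none. Those 7 were Ndufa4l2, Ndufb4, Cox4i2, Cox6b2, Cox7a1, Cox7b2 and Cox8b. All but Ndufb4 encode isoforms known mainly from other tissues or conditions, such as Cox7a1 and Cox8b from heart and muscle, and the muscle marker genes were likewise under the floor apart from a dim Ckm. The general isoforms analysed here were bright. Cox4i1 had signals of 11991 on the ZEB2 array, 11297 on SNAIL2, 13871 on TWIST1, 17168 on ZEB1, 13239 on BRAF-on and 12782 on BRAF-off. Cox8a lay between 7017 (SNAIL2) and 9952 (ZEB1), and Ndufa4 between 5161 (SNAIL2) and 11371 (BRAF-off). Ndufa4 is counted with complex I by its name, although the protein is found with complex IV. Cox7c was dim (97.9 to 171 on the brighter of its 2 probe sets), so its ratios are among the least certain.

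Most subunit transcripts stayed within 1.5-fold on every array but one. The highest array was a median of 1.75 times the lowest over the 76 genes, with a range of 1.07 to 7.65 times, and 27 genes spanned at least 2-fold. Over the 5 arrays other than SNAIL2, 63 of the 76 stayed within 1.5-fold. The SNAIL2 array was the lowest of the 6 for 58 genes, and the ZEB1 array was the highest for 43. These counts and spans were not made over all genes, so they have no background here. Among all genes, the shares at least 1.5-fold from BRAF-on were also largest on these arrays. With SNAIL2 15.7% were lower and 17.3% higher, and with ZEB1 10.8% and 14.8%. Cox6a1, the general isoform of a complex IV subunit, was steady on the probe set used, with signals of 20707 on the ZEB2 array, 22077 on SNAIL2, 19149 on TWIST1, 21503 on ZEB1, 20752 on BRAF-on and 20732 on BRAF-off. The other Cox6a1 probe set was less steady, from 7957 on SNAIL2 to 11174 on ZEB1.

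**Figure D1:**
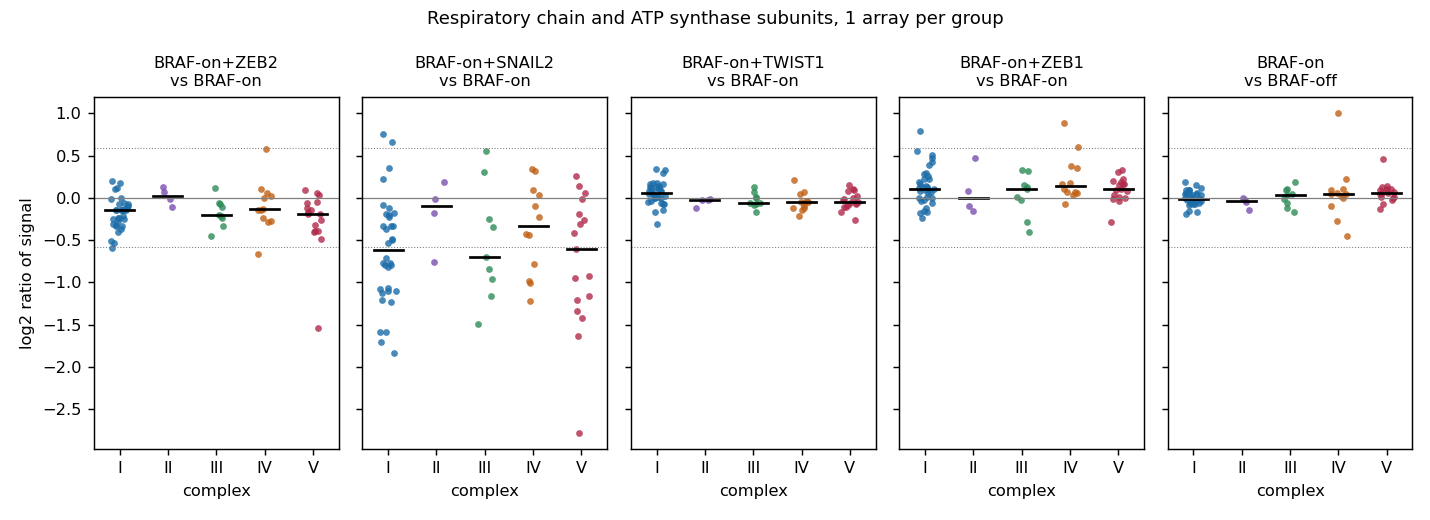
Log2 ratio of each measured subunit gene (points, 76 genes) in the 5 comparisons, grouped by complex, with black bars for medians and dotted lines at 1.5-fold. With SNAIL2 most points lie below 0 and reach -2.78 (Atp5md), whereas with TWIST1 all lie between -0.31 and 0.34.

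On the array labelled SNAIL2, the median subunit transcript was lower than on BRAF-on in every complex, and the size differed between the parts of each complex. The median log2 ratio over the 76 genes was -0.49, against 0.06 for the 11416 genes entered. Of the 76, 36 (47.4%) were at least 1.5-fold lower, where 15.7% of all genes were, and 2 were at least 1.5-fold higher, where 17.3% of all genes were. At 2-fold, 21 of the 76 (27.6%) were lower, against 6.42% of all genes, and 0 were higher, against 5.61%. Of the 76, 62 lay below 0, where 45.5% of all genes did. The poly-A controls were 2.55 times BRAF-on and the melanocyte markers summed to 139349 on SNAIL2 and 67799 on BRAF-on, and their part in the result was not tested. A division into core and accessory subunits, made after the values were seen, is used below to describe which members these were.

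The small membrane subunits of the ATP synthase were all at least 1.5-fold lower, 5 of 5 with a median log2 ratio of -1.34. Atp5md, a small subunit also known as DAPIT that helps hold synthase dimers together, had signals of 3555 on the ZEB2 array, 1503 on SNAIL2, 10972 on TWIST1, 11500 on ZEB1, 10317 on BRAF-on and 7516 on BRAF-off. It was thus far lower on SNAIL2 than anywhere else, at 6.86-fold under BRAF-on, with ZEB2 next. Atp5l, which encodes subunit g, had 6893 on ZEB2, 3119 on SNAIL2, 10418 on TWIST1, 12138 on ZEB1, 9672 on BRAF-on and 8964 on BRAF-off, a log2 ratio of -1.63 for SNAIL2. Atp5mpl (-1.34), Atp5j2 (subunit f, -1.20) and Atp5k (subunit e, -0.95) followed the same order of arrays, with SNAIL2 lowest and ZEB2 next. In the peripheral stalk, which keeps the catalytic head from turning, Atp5j (-1.16), Atp5pb (-0.92) and Atp5h (-0.61) were lower, while Atp5o, the stalk's link to the head, was at -0.01 (10226 on SNAIL2, 10327 on BRAF-on). The other Atp5o probe set was at -0.37.

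The catalytic head and the ring of the ATP synthase lay closer to BRAF-on. Atp5a1 (-0.19), Atp5b (0.06), Atp5c1 (-0.42) and Atp5d (0.26) were all within 1.5-fold, and of the F1 subunits Atp5e alone was past it, at -1.42 (2210 on SNAIL2, 5914 on BRAF-on). Atp5b, the catalytic beta subunit, had signals of 15412 on ZEB2, 16712 on SNAIL2, 15306 on TWIST1, 17126 on ZEB1, 16054 on BRAF-on and 16895 on BRAF-off. The 3 genes for subunit c, whose ring turns as protons pass, were at -0.31 (Atp5g1), -0.27 (Atp5g2) and 0.14 (Atp5g3). Their signals on SNAIL2 and BRAF-on were 4490 and 5548 for Atp5g1, 11148 and 13401 for Atp5g2, and 21088 and 19155 for Atp5g3.

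In complex I, 16 of 28 measured accessory subunits were at least 1.5-fold lower with SNAIL2 (median log2 ratio -0.79) and none higher. Ndufa5, a subunit of the matrix arm, had 3452 on ZEB2, 1400 on SNAIL2, 5594 on TWIST1, 4431 on ZEB1, 4995 on BRAF-on and 5252 on BRAF-off, 3.57-fold lower on SNAIL2 than on BRAF-on. Ndufa1, a small X-linked subunit needed to assemble the complex, had 6581 on ZEB2, 3042 on SNAIL2, 11094 on TWIST1, 12063 on ZEB1, 9925 on BRAF-on and 8720 on BRAF-off, 3.26-fold lower. Both were lowest on SNAIL2 and next lowest on ZEB2, with the other arrays above both. Ndufs4, whose human counterpart is a Leigh syndrome gene, was at 825 on SNAIL2 and 2483 on BRAF-on (log2 ratio -1.59), with the other arrays between 2085 (ZEB2) and 2618 (TWIST1). Ndufs5 was at 3399 on ZEB2, 1611 on SNAIL2, 5465 on TWIST1, 5125 on ZEB1, 4833 on BRAF-on and 4541 on BRAF-off, also at -1.59. Ndufb3 (-1.24) and Ndufc1 (-1.21) came next. Not every accessory subunit was lower: Ndufa9 (0.35) and Ndufa10 (0.23) were slightly above BRAF-on and Ndufb8 (-0.09) lay close to it.

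The 6 measured core subunits of complex I went different ways. Ndufv2 was the 1 at least 1.5-fold lower (-0.71, 4667 on SNAIL2 and 7651 on BRAF-on). Ndufs1 (-0.12), Ndufs3 (-0.33) and Ndufs7 (-0.23), which carry or lie beside the iron-sulfur clusters, were within 1.5-fold. Ndufv1, which oxidises NADH, had 4309 on ZEB2, 5912 on SNAIL2, 3559 on TWIST1, 3924 on ZEB1, 3751 on BRAF-on and 4177 on BRAF-off, so SNAIL2 was the highest array, at 1.58-fold over BRAF-on. Its other 2 probe sets had log2 ratios of 0.56 and 0.51. Ndufs8, another iron-sulfur subunit, was at 0.75, with 6993 on ZEB2, 10853 on SNAIL2, 8159 on TWIST1, 9424 on ZEB1, 6441 on BRAF-on and 7348 on BRAF-off. The 5 other Ndufs8 probe sets disagreed with it and lay between -0.10 and 0.34, so the higher value rests on 1 probe set.

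**Figure D2:**
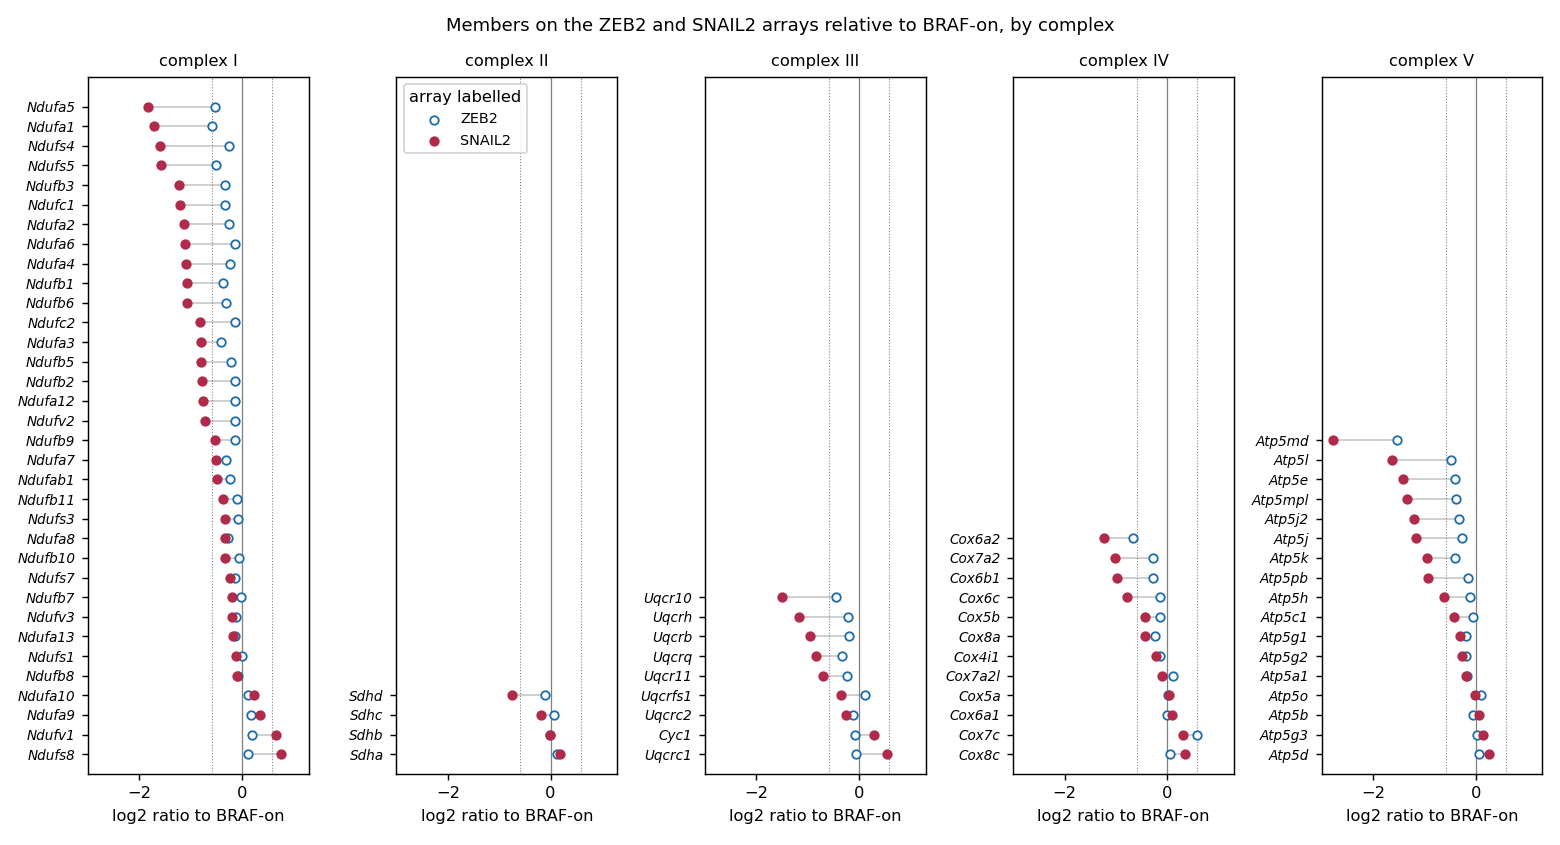
Log2 ratio to BRAF-on of each measured subunit gene on the ZEB2 array and on the SNAIL2 array, with a panel for each complex and the lowest SNAIL2 value in its top row, and dotted lines at 1.5-fold. Atp5md stands at the low end on both arrays (-1.54 with ZEB2 and -2.78 with SNAIL2), and both ratios share the BRAF-on array.

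Complex II, the succinate dehydrogenase of the citric acid cycle, had the median nearest to 0 with SNAIL2 (-0.10). Sdha, the flavoprotein, had 4268 on ZEB2, 4448 on SNAIL2, 3581 on TWIST1, 3656 on ZEB1, 3899 on BRAF-on and 4037 on BRAF-off (log2 ratio for SNAIL2 0.19). Sdhb, the iron-sulfur subunit, had 7448 on ZEB2, 7439 on SNAIL2, 7426 on TWIST1, 7958 on ZEB1, 7537 on BRAF-on and 7522 on BRAF-off (-0.02). On the probe sets used, both catalytic subunits thus kept to a narrow range on all arrays. Another Sdha probe set varied more, from 1779 on TWIST1 to 2955 on SNAIL2, with log2 ratios of -0.34 and 0.40 to BRAF-on. The membrane anchors were Sdhc, at 1965 on ZEB2, 1662 on SNAIL2, 1869.5 on TWIST1, 2596 on ZEB1, 1881 on BRAF-on and 2084 on BRAF-off (-0.18), and Sdhd, at 3706 on ZEB2, 2368 on SNAIL2, 3916 on TWIST1, 3595 on ZEB1, 3998 on BRAF-on and 4057 on BRAF-off (-0.76). Sdhd was the 1 complex II gene past 1.5-fold with SNAIL2.

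In complex III all 5 accessory subunits were at least 1.5-fold lower with SNAIL2 (median -0.96) and none of the 4 catalytic or core subunits was. Uqcr10, a small membrane subunit, had 3914 on ZEB2, 1898 on SNAIL2, 5383 on TWIST1, 5373 on ZEB1, 5344 on BRAF-on and 4958 on BRAF-off (-1.49). Uqcrh, the hinge protein beside cytochrome c1, was at -1.16, Uqcrb at -0.96, Uqcrq at -0.84 and Uqcr11 at -0.71. Against these, Uqcrc1, a large core protein, had 6608 on ZEB2, 10091 on SNAIL2, 7229 on TWIST1, 7506 on ZEB1, 6872 on BRAF-on and 6636 on BRAF-off, highest on SNAIL2 (0.55, just under 1.5-fold). Cyc1, cytochrome c1, was at 0.30 (9318 on SNAIL2, 7554 on BRAF-on), Uqcrc2 at -0.25 and Uqcrfs1, the Rieske iron-sulfur protein, at -0.35.

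Complex IV had 3 of 10 general nuclear subunits at least 1.5-fold lower with SNAIL2. Cox7a2 had 16664 on ZEB2, 10009 on SNAIL2, 18828 on TWIST1, 21207 on ZEB1, 20171 on BRAF-on and 18763 on BRAF-off (-1.01). Cox6b1, which faces cytochrome c, had 12262 on ZEB2, 7551 on SNAIL2, 14460.4 on TWIST1, 16734 on ZEB1, 14920.4 on BRAF-on and 14339 on BRAF-off (-0.98). Both were lowest on SNAIL2 and next lowest on ZEB2, and Cox6c was at -0.79. Cox5a (0.03), Cox6a1 (0.09) and Cox4i1 (-0.23), lay near BRAF-on. The heart and muscle isoform gene Cox6a2 was dim throughout, at 101 on ZEB2, 68.6 on SNAIL2, 145 on TWIST1, 205 on ZEB1, 160.3 on BRAF-on and 79.8 on BRAF-off (-1.22 with SNAIL2).

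For the genes past 1.5-fold with SNAIL2, other probe sets of the same gene mostly went with these values. Genes within 1.5-fold were not counted this way. Among them, other probe sets lay lower than the one used for some, such as Atp5o (-0.37), Cox6a1 (-0.30) and Ndufb9 (-0.74, past 1.5-fold). Ndufa7 was at -0.50, and its other probe sets at -0.90, -0.62, -0.61 and -0.53, all but the last past 1.5-fold. For others they lay higher, such as Sdha (0.40) and Atp5d (0.45). Of the 36 lower and 2 higher genes, 24 had at least 1 further probe set, 38 in all. The sign was the same for 35 of the 38, and 27 were past 1.5-fold the same way. A probe set for ND5, a core subunit of complex I encoded by mitochondrial DNA and no member of the nuclear set, had signals of 8856 on ZEB2, 6459 on SNAIL2, 10342 on TWIST1, 10292 on ZEB1, 8079 on BRAF-on and 7353 on BRAF-off. SNAIL2 was again the lowest array there, by a log2 ratio of -0.32, within 1.5-fold.

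**Figure D3:**
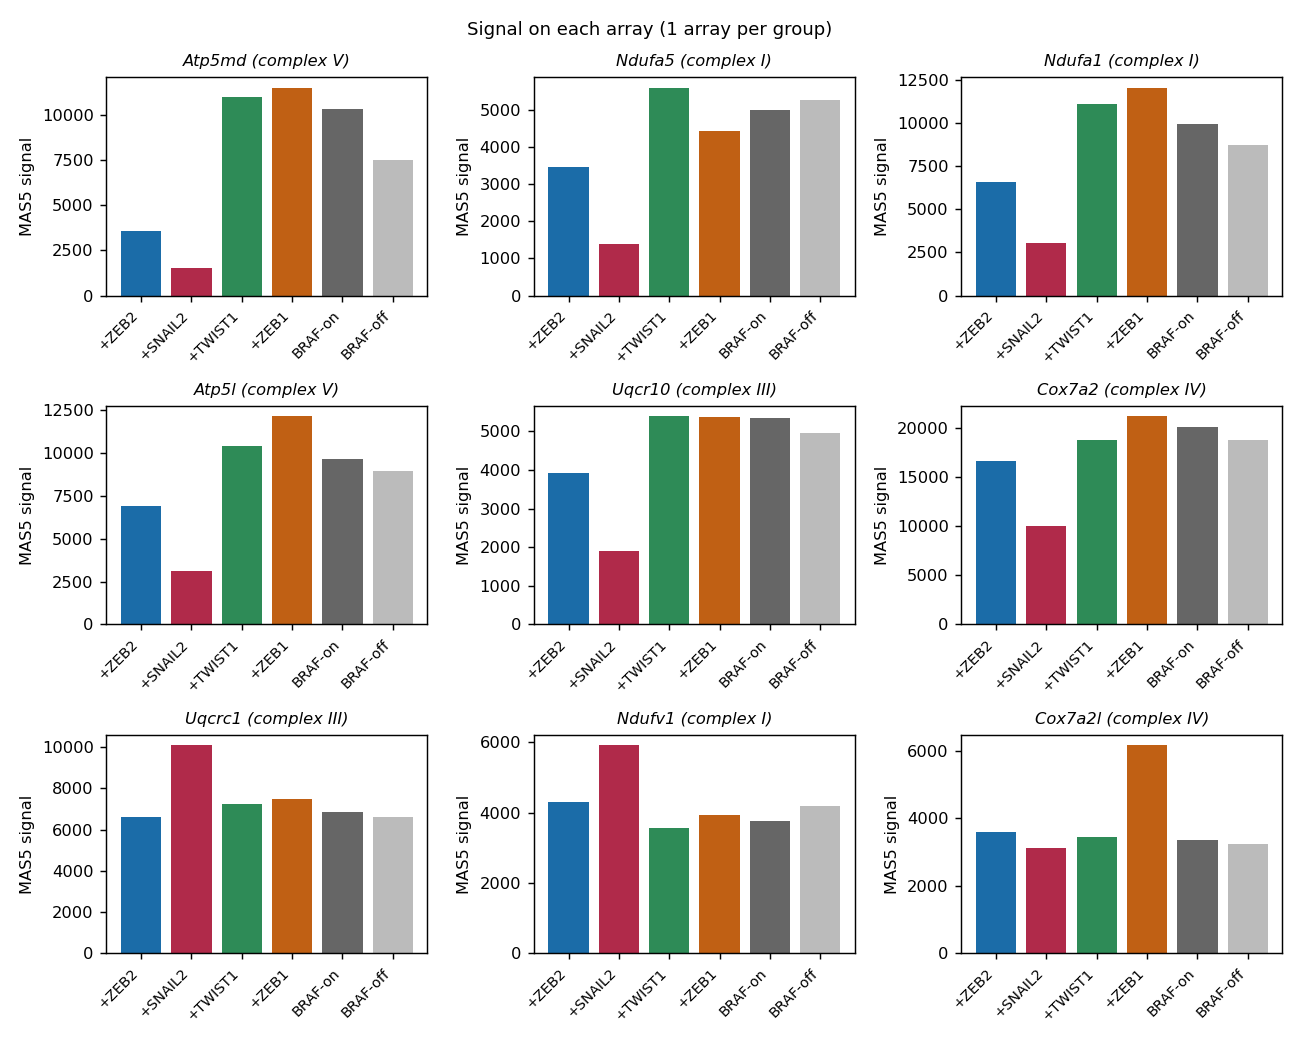
Deposited signal of selected subunit genes on each of the 6 arrays, as bars on linear axes that start at 0, in the order ZEB2, SNAIL2, TWIST1, ZEB1, BRAF-on and BRAF-off. Atp5md and Ndufa5 dip on the SNAIL2 array (1503 and 1400), while Uqcrc1 is highest there (10091).

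Promoter windows are shown for 5 members that went apart with SNAIL2: Atp5md, Atp5l and Ndufa1 among the lowest, and Uqcrc1 and Ndufv1 among the highest. Each runs from 250 bases before the RefSeq transcription start to 50 after it, in the gene's direction, in assembly GRCm38.p6. Atp5md is at chr19:47090598-47090897 on the minus strand, Atp5l at chr9:44920693-44920992 on the minus strand, Ndufa1 at chrX:37191189-37191488 on the minus strand, Uqcrc1 at chr9:108936398-108936697 on the plus strand and Ndufv1 at chr19:4012706-4013005 on the minus strand. Capitals mark matches, on either strand, to the motifs named after the sequences.
Atp5md: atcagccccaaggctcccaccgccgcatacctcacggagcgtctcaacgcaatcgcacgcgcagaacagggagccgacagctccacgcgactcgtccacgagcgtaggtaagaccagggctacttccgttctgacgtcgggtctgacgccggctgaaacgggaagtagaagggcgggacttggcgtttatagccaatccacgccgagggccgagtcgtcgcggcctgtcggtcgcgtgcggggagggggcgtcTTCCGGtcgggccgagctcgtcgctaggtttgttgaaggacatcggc
Atp5l: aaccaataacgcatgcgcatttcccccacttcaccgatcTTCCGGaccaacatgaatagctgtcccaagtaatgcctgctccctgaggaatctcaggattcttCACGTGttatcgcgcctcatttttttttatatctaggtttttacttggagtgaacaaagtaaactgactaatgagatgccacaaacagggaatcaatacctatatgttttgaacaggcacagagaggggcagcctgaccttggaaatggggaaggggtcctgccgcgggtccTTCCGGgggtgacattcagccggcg
Ndufa1: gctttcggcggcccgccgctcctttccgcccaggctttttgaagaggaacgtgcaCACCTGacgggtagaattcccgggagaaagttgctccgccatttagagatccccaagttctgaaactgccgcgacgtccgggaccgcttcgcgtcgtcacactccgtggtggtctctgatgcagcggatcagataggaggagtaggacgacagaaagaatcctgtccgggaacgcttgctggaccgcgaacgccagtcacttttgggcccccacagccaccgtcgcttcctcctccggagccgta
Uqcrc1: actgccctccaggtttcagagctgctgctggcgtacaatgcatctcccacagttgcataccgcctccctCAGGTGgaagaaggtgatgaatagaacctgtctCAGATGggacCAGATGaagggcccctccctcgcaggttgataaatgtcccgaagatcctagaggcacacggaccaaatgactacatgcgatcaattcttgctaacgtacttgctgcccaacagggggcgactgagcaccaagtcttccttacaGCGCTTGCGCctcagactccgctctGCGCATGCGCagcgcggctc
Ndufv1: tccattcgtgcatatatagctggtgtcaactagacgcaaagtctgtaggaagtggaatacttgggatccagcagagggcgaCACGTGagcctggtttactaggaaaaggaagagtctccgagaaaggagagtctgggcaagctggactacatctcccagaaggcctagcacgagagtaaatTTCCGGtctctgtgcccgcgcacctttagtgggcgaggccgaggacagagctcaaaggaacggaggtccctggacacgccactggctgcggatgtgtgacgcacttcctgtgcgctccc
The capitals in Atp5md are 1 match to CCGGAA, the core bound by ETS factors such as GABP. Atp5l has 2 such cores and 1 CACGTG, an E-box of the MYC and MITF families. Ndufa1 has 1 CACCTG, the E2 box bound by SNAI and ZEB factors. Uqcrc1 has 2 sites of nuclear respiratory factor 1 (NRF1), 1 CACCTG and 2 CATCTG, an E-box bound by TWIST factors. Ndufv1 has 1 CCGGAA and 1 CACGTG. Such matches describe the letters of these windows and do not show binding.

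Over the whole set, 67 of the 83 genes had a window in the RefSeq table, of which the first listed was used. The NRF1 site occurred in 20.9% of them, against 6.60% of the windows of 17492 protein-coding genes. CCGGAA occurred in 38.8% against 19.1%, AANATGGC (YY1) in 19.4% against 6.69%, TCAAGGTCA (estrogen-related receptors) in 2.99% against 0.332%, and TGACGTCA (CREB and ATF factors) in 4.48% against 2.34%. TCAAGGTCA and TGACGTCA were found in only 2 and 3 of the 67 genes. The factors of these motifs are regulators known from background for respiratory genes. The median GC content was 58.7% in the windows of the subunit genes and 56.3% in those of all protein-coding genes. Its part in the motif shares was not tested. CACCTG was found in 20.9% of the subunit genes and 19.3% of all. It was in 6 of the 30 genes with a window that were lower with SNAIL2 (20%) and in 8 of the 32 other measured genes (25%). CACGTG was in 8.96% against 7.90%, CATGTG (MITF family) in 7.46% against 11.5%, CATCTG in 13.4% against 14.8% and CATATG in 1.49% against 3.26%. These E-boxes share the frame CANNTG with CACCTG, and 1 place can match 1 of them only. The 30 lower genes had a median GC content of 59.3% in the window and the 32 others 57.3%, and their median genomic lengths were 7.58 and 7.41 kb. Across these 62 genes, which are no independent replicates, the Spearman rho of GC content with the SNAIL2 log2 ratio was -0.10.

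On the array labelled ZEB2 the subunit genes were slightly lower than on BRAF-on as a set, with few single genes far apart. The median log2 ratio was -0.15, against -0.00 for the 11322 genes entered. Of the 76, 61 (80.3%) lay below 0, where 50.8% of all genes did. At least 1.5-fold lower were 3 genes (3.95%), about the share of all genes (3.98%), and none was that much higher, where 6.01% of all were. At 2-fold, 1 was lower, against 0.583% of all genes. The 3 were Atp5md (-1.54, 3555 on ZEB2 and 10317 on BRAF-on), the dim Cox6a2 (-0.67) and Ndufa1 (-0.59, 6581 and 9925). Ndufa5 (-0.53), Ndufs5 (-0.51), Atp5l (-0.49) and Uqcr10 (-0.45) came next. By part, the median was -0.40 for the small membrane subunits of the ATP synthase, -0.24 for accessory subunits of complex III and -0.23 for those of complex I. For the core subunits it was -0.07 in complex III and -0.04 in complex I, and complex II was at 0.02, a sign that turned with other probe set choices. The poly-A controls were 1.35 times BRAF-on on that array, and their part in the result was not tested. The largest ratio upward was that of the dim Cox7c (0.58, 170.5 on ZEB2 and 114 on BRAF-on).

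With ZEB1 the subunit genes were a little higher than on BRAF-on, close to the shift of all genes. The median log2 ratio was 0.11, against 0.07 for the 11614 genes entered, and 57 of the 76 (75%) lay above 0, where 56.7% of all genes did. At least 1.5-fold higher were 3 genes (3.95%), where 14.8% of all genes were, and none was lower, where 10.8% of all were. At 2-fold, 0 were higher, against 4.49% of all genes. On the ZEB1 array the poly-A controls were 1.42 times BRAF-on, and their part in the result was not tested. Cox7a2l, a protein related to Cox7a2 that joins complexes III and IV into supercomplexes, had 3609.8 on ZEB2, 3137 on SNAIL2, 3464 on TWIST1, 6165 on ZEB1, 3350 on BRAF-on and 3235 on BRAF-off. The ZEB1 array alone was high, by 1.84-fold over BRAF-on, and the other 2 probe sets had log2 ratios of 0.63 and 1.11. Ndufv3, an accessory subunit of the NADH-oxidising module, had 3503 on ZEB2, 3329 on SNAIL2, 4788 on TWIST1, 6572 on ZEB1, 3810 on BRAF-on and 3564 on BRAF-off, 1.72-fold over BRAF-on. The testis isoform gene Cox8c was dim (226 on ZEB1, 150 on BRAF-on, log2 ratio 0.60), and its other probe set went down (-0.42). Next by size were Ndufs8 (0.55), Ndufa13 (0.50), Ndufa7 (0.48) and Sdhc (0.47) upward, and Uqcrfs1 (-0.40) and Atp5g1 (-0.29) downward. The other Ndufs8 probe sets lay between -0.04 and 0.14 with ZEB1, apart from a dim probe set at 0.66. The other Sdhc probe set was at 0.05.

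On the array labelled TWIST1, where most melanocyte markers were under the floor, every measured subunit gene was within 1.5-fold of BRAF-on. The median log2 ratio was -0.01, against 0.00 for the 11334 genes entered, and with each array centred on its median both moved up, to 0.14 and 0.15. None of the 76 was at least 1.5-fold higher or lower, where 6.38% and 6.28% of all genes were. The most distant were Ndufs8 (0.34), Ndufv3 (0.33) and Ndufa13 (0.29) upward and Ndufb1 (-0.31), Atp5o (-0.26) and Cox7c (-0.22) downward. The other Ndufs8 probe sets lay between -0.03 and 0.21, apart from a dim probe set at 0.50. In signal, Ndufa13, a subunit also known as GRIM-19, was at 10572 on TWIST1 and 8647 on BRAF-on, and Atp5o at 8609.8 and 10327.

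With BRAF activated and no factor added, the set also stayed close to BRAF-off. The median log2 ratio of BRAF-on over BRAF-off was 0.02, against -0.00 for the 11200 genes entered, and centring moved both down, to -0.13 and -0.15. Cox6a2 alone was at least 1.5-fold higher (2.01-fold, 160.3 on BRAF-on and 79.8 on BRAF-off), where 4.01% of all genes were, and none was lower, where 2.39% were. Of the muscle markers, Myh1, Myh4, Actn3 and Myog were under the floor on both arrays, and Ckm was at 120 on BRAF-on and 43.1 on BRAF-off. Next by size were Atp5md (0.46, 10317 on BRAF-on and 7516 on BRAF-off), Cox8a (0.22) and Ndufa1 (0.19) upward and Cox7c (-0.45), Cox8c (-0.27) and Ndufs8 (-0.19) downward. A drug effect and a difference between cultures cannot be told apart from activation here.

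Other mitochondrial genes were set beside the subunits, with the share of all genes as background (with SNAIL2, 15.7% lower and 17.3% higher). With SNAIL2, 16 of 43 assembly factors, which build the complexes, were at least 1.5-fold lower and none higher (37.2% lower, median -0.35). The lowest were Cox16 (-2.08), Cmc1 (-1.68) and Cox20 (-1.34) of complex IV and Sdhaf4 (-1.24) of complex II. Mitochondrial ribosomal proteins, which translate the mitochondrially encoded subunits, were lower for 31 of 76 genes and higher for 2 (40.8% lower, median -0.44), among them Mrpl47 (-2.22) and Mrpl33 (-2.16) downward and Mrps27 (0.88) and Mrpl37 (0.63) upward. Of the 22 import genes 7 were lower and none higher (31.8% lower, median -0.31), with Timm8b (-1.90) and Tomm7 (-1.73) at the low end. Cytoplasmic ribosomal proteins had 12 of 43 lower and 1 higher (27.9% lower, median -0.32). The citric acid cycle was near level (median -0.02, 4 lower and 1 higher of 17, 23.5% lower), with Idh3a at -1.08 and Ogdh at 0.81. In coenzyme Q synthesis and cytochrome c the 13 genes went both ways, 3 higher and 2 lower (median 0.21), with Coq8a at 1.96, Coq4 at 1.01, Coq10b at -1.17 and Cycs at -1.03. Regulators of mitochondrial biogenesis had 3 lower and 1 higher of 17 (17.6% lower, median -0.16). The last 3 lists are so small that their lower shares differ from the background by 1 or 2 genes at most.

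**Figure D4:**
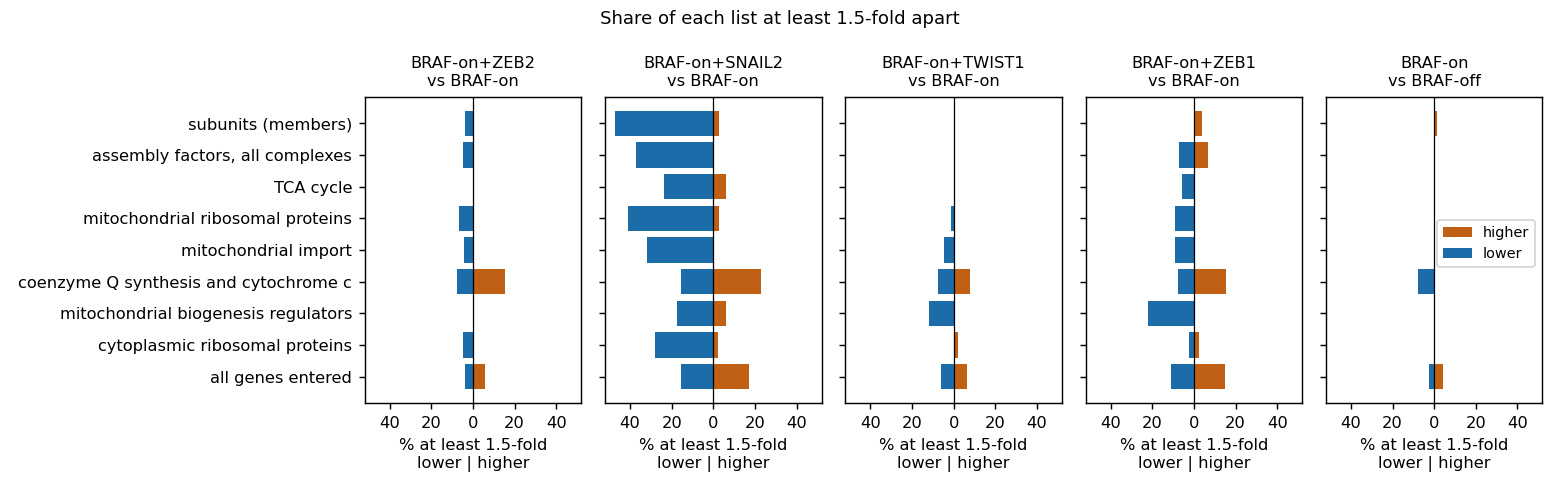
Share of each gene list at least 1.5-fold lower (left, blue) or higher (right, orange) in the 5 comparisons, with the subunit genes in the top row and all genes entered in the bottom row. With SNAIL2, 47.4% of the subunit genes and 40.8% of the mitochondrial ribosomal protein genes were lower, against 15.7% of all genes.

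In the other comparisons these lists held few genes past 1.5-fold. With ZEB2, where 3.98% of all genes were lower, the medians were -0.19 for assembly factors (2 of 43 lower), -0.19 for mitochondrial ribosomal proteins (5 of 76 lower) and -0.20 for import, and of the coenzyme Q list Coq8a (1.35) was the most distant upward. With ZEB1, where 10.8% of all genes were lower, 3 of 14 complex I assembly factors were lower, namely Ndufaf4 (-1.37), Ndufaf2 (-0.93) and Ndufaf6 (-0.91), while the complex I subunits had none lower of 34. Uqcc3 (1.01), Pet100 (0.80) and Sdhaf4 (0.65) were higher there. Of 18 biogenesis regulators 4 (22.2%) were lower with ZEB1, namely the coactivator gene Ppargc1b (-0.98), Myc (-0.97), the GABP subunit gene Gabpb1 (-0.83) and Pprc1 (-0.74). With TWIST1, where 6.28% of all genes were lower, Myc (-1.13) and Ppargc1b (-0.63) were the 2 of 17 that were lower, beside subunit genes that were within 1.5-fold. The counts given here exceed those shares by about 2 genes or fewer.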

How the data were processed

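Total RNA (100 ng per sample, per the labels' protocols) was amplified by in vitro transcription from the 3' end. Deposited were linear intensities (signals) per probe set, which the authors made with MAS5 (Expression Console 1.1 from Affymetrix), per the submitters' processing notes. With the top and bottom 2% trimmed, every array averaged 500, a sign of scaling by the authors. A further scaling can move all log2 ratios of a comparison together.

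Of 45101 probe sets, 34945 were paired with 1 gene symbol and used, 932 with several, 9160 with none, and 64 were controls. Symbols and promoters came from RefSeq tables (GRCm38.p6). Each gene was represented by its brightest probe set, judged by mean log2 signal. Values below 63.7, the median of all values, were set to that floor, and genes with both arrays of a comparison below it were left out. Genes were counted by size, at 1.5-fold and 2-fold, without a test, since groups held 1 array. The counting was tested on simulated data.

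The members, lists and naming rule were chosen with earlier results of these data known. Named genes are members past 1.5-fold (up to 6 per comparison and direction), complex II, isoform pairs and subunit c, and otherwise the 2 largest ratios per complex, and up to 4 list members per direction. Beyond that rule, the genes that show a group's spread were chosen after their values were seen, as were the core and accessory roles and the 5 printed promoters. Of the alternatives, 9 were planned, and setting the factors against BRAF-off was chosen after seeing the data. Python 3.11.15, numpy 2.4.6, pandas 2.3.3 and scipy 1.17.1 were used.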

Additional observations from a re-analysis of the deposited data

Results flagged for a closer look

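Some probe sets pair a subunit symbol with another gene and stayed out of the gene values, yet were at least 1.5-fold from BRAF-on (log2 ratios). A probe set for Ndufs5 and its pseudogene was at -1.05 with SNAIL2 (2381 on SNAIL2, 4922 on BRAF-on), and 2 probe sets for Ndufb4 and its copies were at -0.87 and -0.90 there. The Ndufb4 probe set used above, matched to that symbol alone, was under the floor on all arrays. The remaining ones were dim. A probe set shared by Ndufa11b and Ndufa11 (64.3 on BRAF-on) was at 0.91 with SNAIL2 and 0.76 with ZEB1. A far brighter probe set of the same pair (4236 on BRAF-on) was within 1.5-fold, at -0.22 with SNAIL2 and 0.06 with ZEB1. One shared by Yjefn3 and Ndufa13 was at 0.87 with SNAIL2, and at -0.67 with ZEB2 and -0.67 with ZEB1, both with the factor array under the floor, so it was at least 1.59-fold lower. One shared by Ndufb2 and Adck2 was at -0.64 with ZEB2 and -0.85 with SNAIL2.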

How the results depend on the processing

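No paired analysis was possible because each group held 1 array. The lower count with SNAIL2 (36 at 1.5-fold) was 31 to 39 under the other settings that kept that size, 21 at 2-fold, and 35 against BRAF-off. The 31 were of 58 genes, without probe sets that match several transcripts, where 15.1% of all genes were lower. The 39 were of 83 genes, without a floor, where 24.2% of all genes were lower. The SNAIL2 median (-0.49) lay between -0.42 and -0.72, the last without probe sets that match several transcripts (58 genes), and at -0.41 against BRAF-off. Centring each array on its median turned the sign of the member median, to -0.13 for BRAF activation (0.02 without it, 70 genes below 0 in place of 31) and to 0.14 for TWIST1 (-0.01 without it, 69 above 0 in place of 34), as it shifted all genes by -0.15 and 0.15. Against BRAF-off the TWIST1 median was 0.04. Medians of ZEB2, SNAIL2 and ZEB1 kept their sign. Of the counts, 25 moved and 73 did not. By complex, 23 medians moved and 177 did not, and signs turned among medians near 0, such as complex II with ZEB2 (0.02, -0.04 with all probe sets) and complex III with ZEB1 (0.10, -0.05 without probe sets matching several transcripts). Small counts changed most. Without a floor, BRAF activation had 4 higher and 2 lower, ZEB2 5 lower, SNAIL2 4 higher, TWIST1 2 higher and 3 lower, and ZEB1 5 higher and 2 lower. Of all genes, 20.8% were then higher and 10.3% lower for BRAF activation, 16.1% lower for ZEB2 and 22.8% higher for SNAIL2. For TWIST1 14.3% of all genes were higher and 20.4% lower, and for ZEB1 22.7% and 18.7%. Floors at the 60th and 75th percentile gave 0 higher for BRAF activation, where 2.03% and 0.748% of all genes were. Without probe sets matching several transcripts there were 2 higher for BRAF activation, 0 higher for SNAIL2 and 1 lower for TWIST1, and the median of all probe sets gave 0 higher for SNAIL2. The shares of all genes in the same order were 4.04%, 17.5%, 6.92% and 15.6%. Centring gave 1 lower for BRAF activation and 1 higher for ZEB2, and quantile normalization 1 higher for ZEB2. Of all genes, 4.84%, 6.69% and 5.99% were, in the same order. At 2-fold there were 1 lower for ZEB2, 0 higher for SNAIL2 and 0 higher for ZEB1. Against BRAF-off, an alternative chosen after seeing the data, there were 1 higher for SNAIL2, 1 higher and 1 lower for TWIST1, and 5 higher for ZEB1. The shares of all genes against BRAF-off are not given here for the factor arrays. The cause of these changes was not tested, except that no floor lets in dim genes. Signals of dim genes limit the precision.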
